A study of Mus musculus with 6 samples.

Results

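The prostaglandin synthesis enzymes described here are 10 of the 55401 genes in the deposited table, found by their GENCODE M21 mouse symbols. They are the arachidonate-releasing phospholipase Pla2g4a, the cyclooxygenases Ptgs1 and Ptgs2, the prostaglandin E synthases Ptges and Ptges2, the prostaglandin D synthases Ptgds and Hpgds, thromboxane synthase Tbxas1, prostacyclin synthase Ptgis and the prostaglandin-inactivating dehydrogenase Hpgd. The set was drawn up with the response of these same libraries in view, so the difference of each of the 10 genes between groups is given as a description and carries no test. RNA was sequenced from RAW264.7 cells, a mouse macrophage-like tumour cell line labelled wild type, after PBS in 3 libraries or molybdenum disulfide (MoS2) at 6.25 µg/ml in another 3. All 6 libraries come from that single line, and the sources used here do not give the treatment time. Nothing in the labels says whether the replicates were grown as separate cultures. The p-values therefore cover the spread among these libraries alone, which may be technical.

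Prostanoids are short-lived lipid signals made in a chain of enzyme steps. A phospholipase frees arachidonate from membranes, a cyclooxygenase turns it into prostaglandin H2, and a terminal synthase converts that intermediate into prostaglandin E2, prostaglandin D2, thromboxane A2 or prostacyclin. In macrophages Ptgs1 is known as the constitutive cyclooxygenase and Ptgs2 as the form induced by inflammatory stimuli, and which terminal synthases a cell holds shapes the mixture it can release.

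Total counts were 17008020 to 17695883 per library with PBS and 15767618 to 18412762 with MoS2. Levels are library-scaled read counts (CPM, with TMM factors), and a log2 change is MoS2 over PBS from an edgeR quasi-likelihood fit across 12972 genes, with its standard error (SE). TMM factors were 1.31 in each PBS library and 0.743 to 0.783 with MoS2, so with scaling by library totals alone the median shift of a gene's log2 change was -0.77. The markers that define macrophages summed to 7376 to 7587 CPM with PBS and 4908 to 5188 CPM with MoS2. Members of that list went both ways, with 5 called lower and 2 higher at an edgeR adjusted p under 0.05. Over all tested genes 42.4% were called lower and 38.3% higher. Csf1r (1835 to 1949 against 499 to 529 CPM) and Lyz2 (3539 to 3788 against 1917 to 2049 CPM), its most abundant genes with PBS, were lower. Cd68 (566 to 652 against 1286 to 1333 CPM) and Itgam (42.1 to 47.6 against 121 to 127 CPM) were higher. None of the 10 was at 0 in every library, though Mertk and Mrc1 stayed below 1 CPM. Of 6 mast cell markers, 4 (Mcpt4, Tpsb2, Cma1 and Fcer1a) had no counts in any library, and the list summed to at most 0.651 CPM, which bears on Hpgds and Ptgds since mast cells are a known source of prostaglandin D2. Platelet markers, which bear on Ptgs1 and Tbxas1, summed to 0.737 to 1.21 CPM with PBS and 2.11 to 3.22 CPM with MoS2, with Gp1bb and Ppbp at 0, and their part in those values was not tested. Epithelial and fibroblast lists reached at most 0.585 CPM in any library, and the B cell list at most 0.738 CPM. Endothelial markers summed to 11.9 to 12.9 CPM with PBS and 3.57 to 4.53 CPM with MoS2, mostly from Vwf. T cell markers summed to 5.39 to 6.63 CPM with PBS and 9.18 to 11.7 CPM with MoS2, mostly from Lck. Fewer cells and less RNA per cell cannot be told apart in such bulk libraries.

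Ptgs2 was 156-fold higher with MoS2, Ptgds 21.8-fold lower and Hpgds 2.06-fold lower, while Pla2g4a, Ptges and Ptges2 differed by less than 1 on the log2 scale. Of the 10 genes, 9 passed the low-count filter of the fit and Ptgis did not. Ptgds, Tbxas1 and Hpgd, each with fewer than 10 counts in at least 2 MoS2 libraries, passed it through the PBS group. As a description only, 4 of the 9 fell on the higher side of the rule used for all genes (Ptgs2, Ptges, Ptges2 and Pla2g4a), 4 on the lower side (Ptgds, Hpgds, Tbxas1 and Hpgd) and Ptgs1 on neither. That rule, an edgeR adjusted p under 0.05, called 80.7% of all genes tested, 38.3% higher and 42.4% lower. Since the genes were chosen from this contrast, and 3 of them had to be high in PBS to be fitted, nothing is read from their count. The genes in that count also changed with the library left out. With 1 library left out at a time, the log2 change of Ptges2 ran from 0.15 to 0.37. That of Tbxas1 ran from -1.81 to -0.85 and that of Ptgs1 from 0.31 to 0.79. Scaled by library totals alone, the same count was 1 higher and 6 lower, with Ptges, Ptges2 and Pla2g4a on the lower side of 0.

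**Figure D1:**
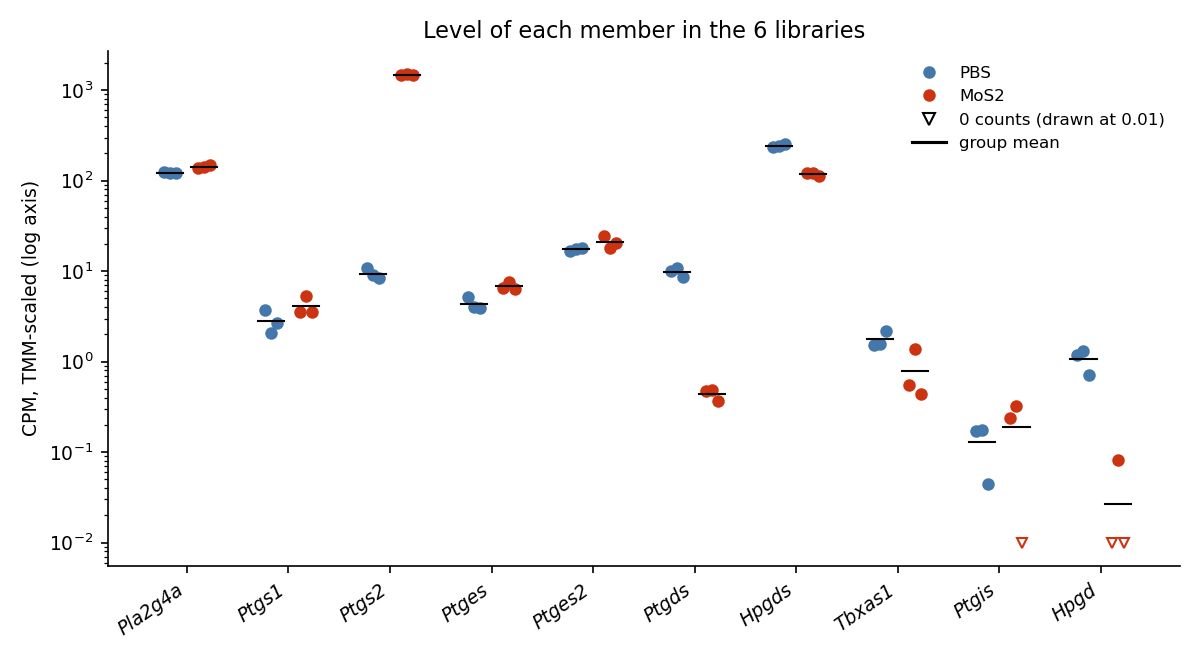
Level of each of the 10 genes in the 6 libraries, in TMM-scaled CPM on a log axis, with 1 point per library, a bar at the group mean and open triangles for libraries with 0 counts, drawn at 0.01. Ptgs2 lies at 8.31 to 10.8 CPM with PBS and 1462 to 1504 CPM with MoS2, while Ptgds and Hpgd lie lower in each MoS2 library than in any PBS library and Ptgs1 and Ptgis overlap.

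Cytosolic phospholipase A2, encoded by Pla2g4a (ENSMUSG00000056220.14, GRCm38 chr1:149829618-149961290, minus strand), is the lipase that releases arachidonate in stimulated cells. Its level was 125, 123 and 121 CPM in the PBS libraries and 139, 141 and 149.8 CPM in the MoS2 libraries. The groups did not overlap on this scale, with means of 123 ± 2.14 and 143 ± 5.88 CPM (SD, n = 3) and a log2 change of 0.22 ± 0.06 (SE). That direction rests on the scaling, since the log2 change was 0.09 with upper-quartile factors and -0.55 with library totals. Pla2g4a was the second most abundant of the 10 per transcript length in both groups.

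Ptgs2 (ENSMUSG00000032487.8, GRCm38 chr1:150100031-150108227, plus strand) had 250, 210 and 185 counts in the PBS libraries and 18305, 18560 and 20007 in the MoS2 libraries. These are 10.8, 9.12 and 8.31 CPM against 1462, 1504 and 1463 CPM. The MoS2 libraries lay close together and far above every PBS library. Means were 9.42 ± 1.29 and 1476 ± 24.1 CPM (SD, n = 3), a log2 change of 7.29 ± 0.10 (SE) that ran from 6.52 with library totals to 7.33 with RLE factors and from 7.19 to 7.40 when any 1 library was left out.

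Ptgs1 (ENSMUSG00000047250.13, GRCm38 chr2:36230426-36252272, plus strand), which catalyses the same reaction, was sparse. It had 87, 48 and 59 counts with PBS and 44, 66 and 48 with MoS2, or 3.77, 2.08 and 2.65 against 3.51, 5.35 and 3.51 CPM. The groups overlapped, and the log2 change of 0.53 ± 0.27 (SE) became -0.23 with library totals. Within each library, where no scaling between libraries enters, the ratio of Ptgs2 to Ptgs1 per exon length was 2.44, 3.71 and 2.66 with PBS and 353, 238 and 353 with MoS2. The mean ratio was thus 107-fold higher with MoS2, at 315 ± 66.2 against 2.94 ± 0.680 (SD, n = 3).

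The windows of 250 bases just before the RefSeq transcription starts of these genes (GRCm38.p6) are shown to set the induced cyclooxygenase beside its low counterpart, at chr1:150099781-150100030 and chr2:36230176-36230425, both on the plus strand. Capitals mark matches to any of 7 motifs searched here.
Ptgs2: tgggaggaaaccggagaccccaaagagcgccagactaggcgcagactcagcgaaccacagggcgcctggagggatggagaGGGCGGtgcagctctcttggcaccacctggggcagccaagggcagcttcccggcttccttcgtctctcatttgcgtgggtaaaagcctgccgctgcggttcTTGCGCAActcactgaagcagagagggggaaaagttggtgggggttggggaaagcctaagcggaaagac
Ptgs1: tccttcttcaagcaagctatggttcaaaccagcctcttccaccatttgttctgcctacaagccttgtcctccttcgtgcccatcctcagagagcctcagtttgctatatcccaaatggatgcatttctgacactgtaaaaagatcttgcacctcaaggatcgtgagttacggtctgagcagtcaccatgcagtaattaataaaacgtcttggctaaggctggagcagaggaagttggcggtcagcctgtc
In the Ptgs2 window the capitals are a GC box (GGGCGG), 170 to 165 bases before the start, and a C/EBP motif (TTGCGCAA), 69 to 62 bases before it. No match of any of the 7 motifs fell in the Ptgs1 window. The search covered the TATA box (TATAAA, forward strand) and, on both strands, the E-box (CACGTG), the cAMP response half-site (TGACG) and the AP-1 motif (TGANTCA). Also searched on both strands were the C/EBP motif (TTGCNNAA), the GC box (GGGCGG) and the NF-kB consensus. No matches overlapped each other in the windows of the 9 genes that had one. Among 32817 RefSeq windows of the same length, 32.7% held a GC box and 9.57% the C/EBP motif. GC content was 61.6% in the Ptgs2 window and 48.0% in the Ptgs1 window, with a median of 52.4% over all windows. A match of letters describes the window and is not a measured binding site. Bases outside the windows, including those after the annotated starts, were not searched.

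Ptgs2 and Ptgs1 also differed in the AU-rich pentamers (ATTTA) of their 3' UTRs, sequences through which RNA-binding proteins are known to set how long an mRNA lasts. The 3' UTR of Ptgs2 held 14 pentamers in 2445 bases, and 2.18% of 10812 tested genes held as many or more. It was longer than the median 3' UTR of 958 bases, and by density 4.99% of those genes were as dense or denser. The 3' UTR of Ptgs1 held 0 in 921 bases. Of the 14, 4 lie together 12 to 41 bases after the Ptgs2 stop codon, at GRCm38 chr1:150105794-150105823 on the plus strand, and are shown with the pentamers in capitals.
Ptgs2 AU-rich site: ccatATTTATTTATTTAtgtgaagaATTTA
Pla2g4a had the highest density of the 9 genes with an annotated 3' UTR examined, with 4 pentamers in 443 bases, or 9.03 per kb. Of tested genes, 1.32% were as dense or denser. Hpgd had 4 in 838 bases and Ptges2 4 in 3444, Hpgds had 2 in 2631, and Ptges, Ptgds and Tbxas1 had 0. Ptgs2, much higher with MoS2, and Hpgd, nearly absent with it, thus both carried several, against a median of 1 over tested genes. Of tested genes, 26.0% held at least 4, the number in Hpgd, Pla2g4a and Ptges2. The stability of these mRNAs was not measured.

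**Figure D2:**
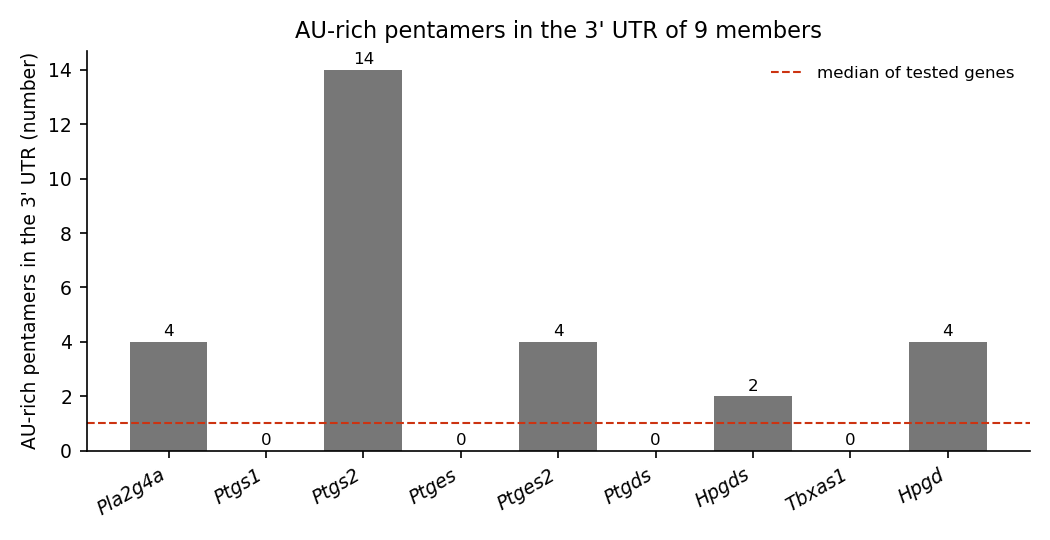
Number of AU-rich pentamers (ATTTA) in the annotated 3' UTR of 9 of the 10 genes, as bars, with a dashed line at the median of 10812 tested genes. The Ptgs2 bar stands at 14 and those of Ptgs1, Ptges, Ptgds and Tbxas1 at 0, against a median of 1.

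Ptgs2 and Pla2g4a are neighbours on chromosome 1, on opposite strands, with their 5' ends toward each other and 138740 bases apart. Of the 3 annotated genes between them, Gm19136 and Gm44329 had 0 counts in every library. The third, the noncoding Ptgs2os, is on the minus strand and its 5' end lies 68 bases before the Ptgs2 start. It had 1, 3 and 1 counts with PBS and 18, 14 and 29 with MoS2, a fitted log2 change of 4.30 ± 0.56 (SE). It passed the low-count filter through the MoS2 group alone, so no test is given. The sources used here do not say whether the counting used strand, so reads of Ptgs2os and upstream reads of Ptgs2 cannot be told apart. A lincRNA on the other side, Ptgs2os2, at 50.8 kb, rose from 1.25 to 5.28 CPM, a log2 change of 2.06 ± 0.25 (edgeR adjusted p = 3.8e-06).

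By root mean square distance between log2 CPM profiles centred over the 6 libraries, the profiles nearest to Ptgs2, among tested genes averaging 5 CPM or more, were those of Hbegf (0.195), Upp1 (0.318), Ccl5 (0.402), Id1 (0.445) and Ccl2 (0.460). Hbegf had 17, 17 and 18 counts in the PBS libraries and 1367, 1438 and 1557 in the MoS2 libraries. That it is high in the same group as Ptgs2 follows from the choice by profile. Upp1 had 4 counts and Ccl2 1 count over all PBS libraries, so their distances depend on the prior count of 2 used for the log scale.

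Of the 10 genes, Ptges and Ptges2 make prostaglandin E2. Ptges (ENSMUSG00000050737.13, GRCm38 chr2:30889471-30929863, minus strand), the synthase known to be induced together with Ptgs2 in inflammation, had 5.20, 4.04 and 3.91 CPM with PBS and 6.47, 7.62 and 6.36 CPM with MoS2. On this scale all 3 MoS2 libraries were above all 3 PBS libraries. The log2 change was 0.63 ± 0.18 (SE), and -0.14 with library totals, where the groups overlapped. Ptges2 (ENSMUSG00000026820.5, GRCm38 chr2:32395896-32405772, plus strand), a membrane-associated synthase described as constitutive, had 16.7, 17.8 and 18.2 CPM against 24.7, 18.2 and 20.5 CPM. Its groups all but met at 18.2 CPM, and its log2 change of 0.27 ± 0.12 became -0.50 with library totals and 0.15 without MoS2 replicate 1. The ratio of Ptges to Ptges2 per length, which needs no scaling, was 0.324 ± 0.0675 with PBS and 0.425 ± 0.102 with MoS2 (SD, n = 3), and the groups overlapped. The cytosolic prostaglandin E synthase Ptges3, also known as a chaperone partner, is not one of the 10 but stood far above both, at 311 ± 27.8 TPM with PBS and 161 ± 7.87 TPM with MoS2, where TPM is the abundance per exon length within a library. On the CPM scale it went from 162 to 198, a log2 change of 0.29 ± 0.08 (edgeR adjusted p = 0.0057) that turned to -0.49 with library totals.

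Both prostaglandin D synthases were lower with MoS2. Ptgds (ENSMUSG00000015090.13, GRCm38 chr2:25466709-25470046, minus strand), the lipocalin-type enzyme, had 229, 247 and 191 counts in the PBS libraries and 6, 6 and 5 in the MoS2 libraries. The levels were 9.93, 10.7 and 8.58 CPM against 0.479, 0.486 and 0.366 CPM, with no overlap. Its log2 change was -4.44 ± 0.25 (SE), and between -4.54 and -4.31 with any 1 library left out. Only 17 counts stand behind the MoS2 group, so its SE is approximate.

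Hpgds (ENSMUSG00000029919.5, GRCm38 chr6:65117293-65144908, minus strand), the haematopoietic enzyme, was the most abundant of the 10 genes in PBS cells. It had 235, 244 and 253 CPM in the PBS libraries and 123, 120.3 and 113 CPM in the MoS2 libraries. The groups were far apart relative to their spread, at 244 ± 9.23 and 119 ± 4.86 CPM (SD, n = 3). The log2 change was -1.04 ± 0.06 (SE), -1.17 with upper-quartile factors and -1.81 with library totals. Within libraries, Hpgds per length stood at 6.50 ± 0.941 times Ptgds with PBS and 69.6 ± 8.69 times with MoS2, so the lipocalin-type enzyme was lower by the greater factor. The ratio of Hpgds to the sum of Ptges and Ptges2 went from 8.30 ± 0.356 to 3.14 ± 0.227, or 2.64-fold lower, with no overlap between groups. With Ptges3 in the sum it went from 0.493 ± 0.0586 to 0.195 ± 0.0230, or 2.52-fold lower.

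The windows before the RefSeq starts of these genes, which share the lower level, are shown with matches to the same motifs in capitals. They lie at chr2:25469750-25469999 for Ptgds and chr6:65144731-65144980 for Hpgds (GRCm38.p6, both written along the minus strand). The GENCODE genes counted here start further upstream. That of Ptgds starts at 25470046, so its whole window lies inside the gene as counted. That of Hpgds starts at 65144908, so part of its window, with the C/EBP match, lies inside the gene.
Ptgds: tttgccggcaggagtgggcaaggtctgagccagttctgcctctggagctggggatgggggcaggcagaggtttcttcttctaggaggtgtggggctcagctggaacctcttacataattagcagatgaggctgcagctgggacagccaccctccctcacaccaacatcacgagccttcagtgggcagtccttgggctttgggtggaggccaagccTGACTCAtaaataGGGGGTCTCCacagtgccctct
Hpgds: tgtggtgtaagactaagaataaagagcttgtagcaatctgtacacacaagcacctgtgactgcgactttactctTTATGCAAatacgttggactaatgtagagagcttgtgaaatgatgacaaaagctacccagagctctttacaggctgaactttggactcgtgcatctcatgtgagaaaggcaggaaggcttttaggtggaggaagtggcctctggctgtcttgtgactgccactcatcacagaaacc
In the Ptgds window the capitals are an AP-1 motif (TGACTCA), 35 to 29 bases before the start, and an NF-kB consensus match (GGGGGTCTCC), 22 to 13 bases before it. The Hpgds window held a C/EBP motif on the other strand (TTATGCAA), 176 to 169 bases before the start. Of all windows, 6.75% held the AP-1 motif and 7.25% the NF-kB consensus. The 2 windows shared none of the 7 motifs.

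The genes nearest to Ptgds by the same distance were Sgsh (0.117), Cebpa (0.118), B3galt6 (0.166), Tlr13 (0.187) and Tlr7 (0.203). Ptgds itself had 6, 6 and 5 counts with MoS2, so these distances depend on the prior count of 2. B3galt6, with 7, 8 and 8 counts there, passed the low-count filter through the PBS group alone. Cebpa, a transcription factor of the C/EBP family, had 773, 723 and 656 counts with PBS and 24, 27 and 21 with MoS2. It was picked for a profile like that of Ptgds, so its low level in every MoS2 library follows from the choice.

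Thromboxane synthase, Tbxas1 (ENSMUSG00000029925.13, GRCm38 chr6:38875404-39084585, plus strand), was rare in both groups. It had 35, 36 and 49 counts in the PBS libraries and 7, 17 and 6 in the MoS2 libraries, or 1.52, 1.56 and 2.20 against 0.559, 1.38 and 0.439 CPM. The second MoS2 library came close to the PBS group while the other two lay well below it. The log2 change of -1.16 ± 0.42 (SE) was -1.81 without that library and -0.85 without MoS2 replicate 3. Prostacyclin synthase, Ptgis (ENSMUSG00000017969.13, GRCm38 chr2:167191805-167240604, minus strand), had 4, 4 and 1 counts with PBS and 3, 4 and 0 with MoS2. Scaled for depth, the ratio was 1.38 and its exact 95% interval, for counting error only, ran from 0.437 to 4.16, so no difference was detectable at this depth.

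Hpgd (ENSMUSG00000031613.9, GRCm38 chr8:56294585-56321043, plus strand) encodes hydroxyprostaglandin dehydrogenase, which inactivates prostaglandins. It had 27, 30 and 16 counts in the PBS libraries and 0, 1 and 0 in the MoS2 libraries. Every PBS library lay above every MoS2 library, though at 1.30 CPM or less throughout. Over the groups this is 73 counts against 1, a scaled ratio of 0.0243 whose exact 95% interval for counting error ran from 6.1e-04 to 0.140. The window before its start, at chr8:56294302-56294551 on the plus strand (GRCm38.p6), is shown because Hpgd has the fewest counts of the 10 genes under MoS2.
Hpgd: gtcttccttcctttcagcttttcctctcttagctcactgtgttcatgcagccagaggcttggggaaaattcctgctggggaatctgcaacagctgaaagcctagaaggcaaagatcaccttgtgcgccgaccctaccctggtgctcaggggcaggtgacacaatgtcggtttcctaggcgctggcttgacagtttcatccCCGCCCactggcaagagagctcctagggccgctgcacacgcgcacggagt
Its capitals are a GC box on the other strand (CCGCCC), 50 to 45 bases before the start. Among the remaining genes, Ptges held 2 GC boxes, Ptges2 an E-box, and Tbxas1 a TATA box and an AP-1 motif. Pla2g4a held none of the 7 in either of its windows, and Ptgis was not among the 9 genes matched in the RefSeq table. The windows of Ptges (chr2:30903298-30903547) and Tbxas1 (chr6:38918736-38918985) lie inside the genes as counted here. So does a window of Pla2g4a (chr1:149922440-149922689). These windows precede internal RefSeq starts and not the GENCODE starts of the genes.

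**Figure D3:**
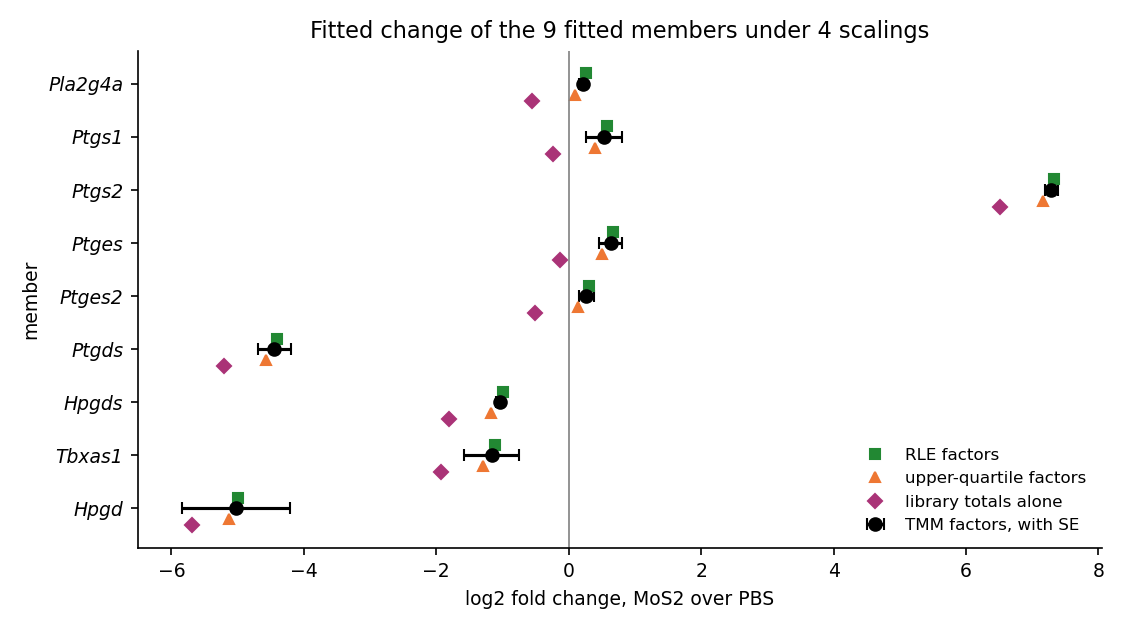
Fitted log2 change (MoS2 over PBS) of the 9 fitted genes, with TMM factors as black points with SE bars and 3 other scalings as coloured marks. Ptgs2 stays far above 0 and Ptgds, Hpgds, Tbxas1 and Hpgd below 0 under all 4, whereas Pla2g4a, Ptgs1, Ptges and Ptges2 lie above 0 with TMM and below 0 with library totals.

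Levels of different genes were compared per exon length as TPM, the length-normalised abundance within each library. In PBS cells the order was Hpgds at 162 ± 9.47, Pla2g4a at 81.6 ± 0.637, Ptgds at 25.1 ± 2.36, Ptges2 at 14.7 ± 0.910, Ptgs2 at 8.73 ± 1.05 and Ptges at 4.73 ± 0.700 TPM (SD, n = 3). Ptgs1 at 3.10 ± 0.910 and Hpgd at 2.68 ± 0.728 TPM overlapped, and Tbxas1 and Ptgis were below 1 TPM. With MoS2 the order began with Ptgs2 at 582 ± 35.5 TPM, then Pla2g4a at 40.4 ± 1.09 and Hpgds at 33.4 ± 2.75 TPM. Ptges2 followed at 7.53 ± 1.16, Ptges at 3.14 ± 0.456 and Ptgs1 at 1.93 ± 0.578 TPM, and the other 4 were below 1 TPM, with Tbxas1 overlapping Ptgis and Ptgis overlapping Hpgd. Ptgs2 thus moved from the fifth place to the first.

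As a share of the summed TPM of the 10 genes, Ptgs2 made up 2.88 ± 0.405% with PBS and 87.0 ± 0.201% with MoS2 (SD, n = 3). Hpgds went from 53.3 ± 1.94% to 4.99 ± 0.196%, Pla2g4a from 26.9 ± 0.537% to 6.04 ± 0.291% and Ptgds from 8.28 ± 0.893% to 0.0725 ± 0.0106%. The sum itself was 297 to 311 TPM with PBS and 630.2 to 709.9 TPM with MoS2, while without Ptgs2 it was 287 to 303 TPM and 82.2 to 91.1 TPM. TPM carries no TMM factor, so that gap between groups depends on the scaling: as TMM-scaled CPM per kb of exon, the sum without Ptgs2 was 68.6 to 69.8 with PBS and 47.9 to 48.7 with MoS2. The shares do not depend on it. A cyclooxygenase therefore led the set in MoS2 libraries, where a terminal synthase of prostaglandin D2 had led it in PBS libraries.

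**Figure D4:**
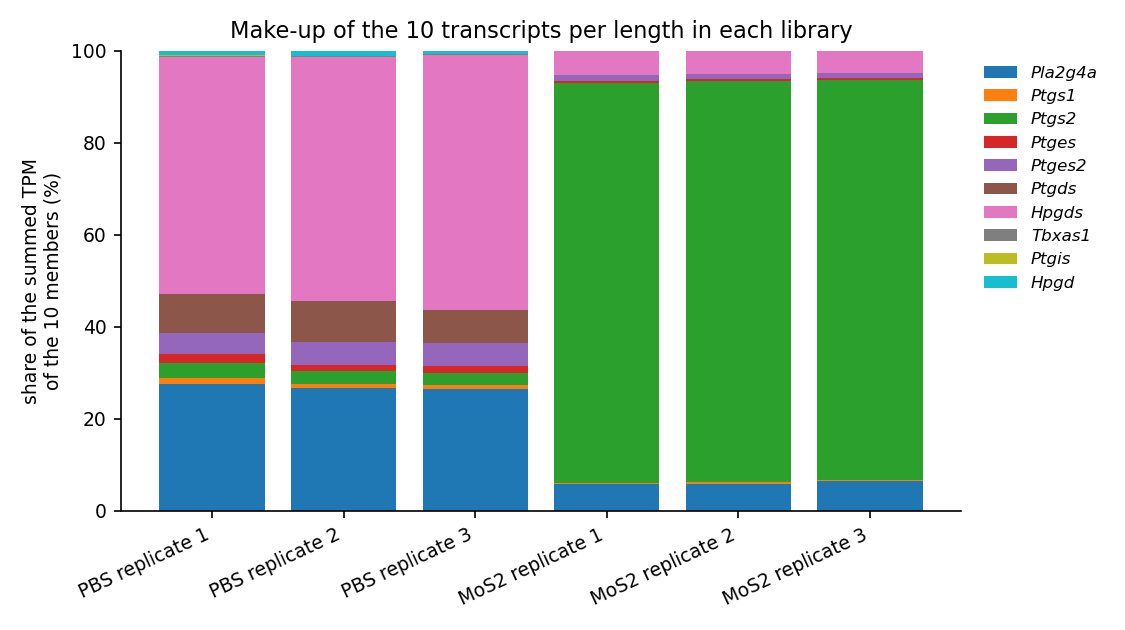
Share of the summed TPM of the 10 genes held by each gene, in percent, as 1 stacked bar per library. Hpgds fills a mean of 53.3% of the PBS bars and Ptgs2 87.0% of the MoS2 bars, with little spread between the 3 libraries of a group.

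A further 10 lists covered the rest of the pathway with 152 genes, of which 108 were tested, 48 rose (44.4%) and 38 fell (35.2%), with a median log2 change of 0.10. Over all tested genes the shares were 38.3% and 42.4% and the median -0.08, which are the values to hold each list below against. The list tallies include genes that passed the low-count filter through a single group, which favours the direction seen. Among these, Pla2g1b, Pla2g4f and Dpep2 passed through PBS and Il6 through MoS2, and their weight in the tallies was not tested. With library totals the split of the lists was 25 and 68. Of 26 other lipases that can free arachidonate or its precursors, 13 were tested, 3 rose (23.1%) and 4 fell (30.8%), with a median log2 change of -0.03, and with library totals 3 rose and 10 fell. The secreted phospholipase Pla2g5 rose from 33.7, 36.5 and 35.5 CPM to 140.4, 145 and 145 CPM, a log2 change of 2.03 ± 0.07 (edgeR adjusted p = 7.5e-12). Pla2g2e, another secreted form beside it on chromosome 4, rose by 1.79 ± 0.12 (edgeR adjusted p = 7.1e-09) and Pla2g12a by 1.52 ± 0.10 (5.7e-09). Diacylglycerol lipase beta, Daglb, fell from 42.1 to 11.2 CPM, a log2 change of -1.91 ± 0.13 (edgeR adjusted p = 9.0e-09). Another secreted form, Pla2g1b, had 14, 17 and 15 counts with PBS and 3, 3 and 5 with MoS2. It passed the low-count filter through the PBS group alone, so its fitted log2 change of -1.22 is given without a test.

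Among 13 tested genes of arachidonate supply and re-esterification, 2 rose (15.4%) and 6 fell (46.2%), with a median of -0.18, and with library totals 0 rose and 12 fell. The lysophospholipid acyltransferases Lpcat1 and Mboat1, which return fatty acids to membrane lipids, fell by 2.41 ± 0.08 and by 2.91 ± 0.12 on the log2 scale (edgeR adjusted p = 5.8e-12 and 6.7e-11). The fatty acid elongase Elovl5 had a log2 change of -1.19 ± 0.07 (edgeR adjusted p = 3.0e-09). Acsl4, which couples arachidonate to coenzyme A, rose from 132 to 238 CPM, a log2 change of 0.86 ± 0.06 (edgeR adjusted p = 9.2e-09), but had 0.08 with library totals (adjusted p = 0.191 by edgeR).

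Of 10 other tested enzymes that convert or reduce prostaglandins, 8 rose and 1 fell, against 38.3% and 42.4% over all tested genes, with a median of 0.60. With library totals 1 rose and 4 fell. Akr1b8, an aldo-keto reductase, rose from 42.0 to 258 CPM, a log2 change of 2.62 ± 0.07 (edgeR adjusted p = 1.3e-12). Akr1b3 and Akr1b10, of the same family, had 0.67 and 0.66, and -0.10 and -0.11 with library totals. The carbonyl reductase Cbr2 fell from 25.9 to 8.26 CPM, a log2 change of -1.65 ± 0.14 (edgeR adjusted p = 9.4e-08). Counts of such close relatives are uncertain, since the sources used here do not say how reads mapping to several places were handled.

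Transport and sensing were sparsely covered. Of 6 transporters, 3 were tested: Abcc1 had a log2 change of 0.73 ± 0.07 (edgeR adjusted p = 3.7e-07) and -0.04 with library totals, Slco4a1 fell by 0.44 ± 0.06 (8.8e-06), and Abcc4 fell by 0.31 ± 0.11 (0.0199). The call for Abcc4 was lost when PBS replicate 2 or 3 or MoS2 replicate 1 or 3 was left out, with log2 changes of -0.28 to -0.24. The prostaglandin importer Slco2a1 had 2 counts in all. Of 10 prostanoid receptors, 3 were tested. The prostaglandin E2 receptor Ptger4 rose from 12.8, 14.3 and 12.5 CPM to 31.1, 27.8 and 27.6 CPM, a log2 change of 1.13 ± 0.10 (edgeR adjusted p = 1.6e-07) and 0.35 with library totals. The prostacyclin receptor Ptgir had 36.8 and 33.0 CPM (log2 change -0.16, edgeR adjusted p = 0.203) and Ptger1 a log2 change of 0.44 (0.171). Ptgir was called lower with upper-quartile factors, at -0.29, and with library totals, at -0.93. Ptgdr2, a prostaglandin D2 receptor, was too low to test, with 2, 10 and 9 counts in the PBS libraries and 0 in each MoS2 library.

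In the lipoxygenase and leukotriene arm, which competes for the same arachidonate, 12 genes were tested, 5 rose (41.7%) and 6 fell (50%), with a median of -0.31, and with library totals 2 rose and 8 fell. Alox5, which begins leukotriene synthesis, fell from 85.4 to 49.3 CPM, a log2 change of -0.79 ± 0.07 (edgeR adjusted p = 8.3e-08). Lta4h, which makes leukotriene B4, rose by 1.02 ± 0.08 (edgeR adjusted p = 3.2e-08), while Ltc4s, which makes leukotriene C4, fell by 2.11 ± 0.21 (5.7e-07). The cysteinyl leukotriene receptor Cysltr1 fell from 12.0 to 1.21 CPM, a log2 change of -3.29 ± 0.19 (edgeR adjusted p = 1.5e-09).

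Among 11 tested kinases and binding proteins of cytosolic phospholipase A2, 6 rose (54.5%) and 5 fell (45.5%), with a median of 0.84, and with library totals 5 rose and 5 fell. The p38 kinase Mapk14, known to phosphorylate that lipase, fell from 115 to 38.8 CPM (log2 change -1.56, edgeR adjusted p = 7.6e-11). Mknk2, Prkca and Anxa2 rose by 1.59, 1.56 and 1.48 on the log2 scale (edgeR adjusted p up to 1.1e-10). Among 12 tested factors that act on AU-rich mRNAs, 5 rose and 5 fell (41.7% each), with a median of 0.05, and with library totals 2 rose and 9 fell. Zfp36, which encodes tristetraprolin and targets AU-rich mRNAs such as Ptgs2 for decay, rose from 24.5, 21.8 and 22.7 CPM to 239, 252 and 246 CPM, a log2 change of 3.41 ± 0.07 (edgeR adjusted p = 1.0e-13). Its relative Zfp36l1 fell from 303 to 92.4 CPM (log2 change -1.71, edgeR adjusted p = 1.5e-10) and Celf2 fell by 2.23 (6.6e-11), while Tial1 rose by 1.35 (4.2e-10).

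Of 20 tested transcription factors known to act at Ptgs2 or Ptges, 11 rose (55%) and 7 fell (35%), with a median of 0.20, and with library totals 6 rose and 12 fell. Jun, Rel and Junb rose by 1.62, 1.59 and 1.45 on the log2 scale (edgeR adjusted p up to 5.3e-10). Cebpa fell from 31.5 to 1.88 CPM, a log2 change of -4.07 ± 0.15 (edgeR adjusted p = 1.8e-11). Of 11 tested genes known to respond to prostaglandin E2 and cyclic AMP, 6 rose (54.5%) and 2 fell (18.2%), with a median of 0.27, and with library totals 5 rose and 5 fell. The phosphatase gene Dusp1 rose from 7.48 to 109 CPM, a log2 change of 3.86 ± 0.10 (edgeR adjusted p = 5.3e-13), and the clock gene Per1 by 2.22 (7.5e-12). Nr4a1, an orphan nuclear receptor, rose by 1.31 (edgeR adjusted p = 1.9e-06), while the cyclic AMP phosphodiesterase Pde4b fell by 2.23 (6.6e-08).

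**Figure D5:**
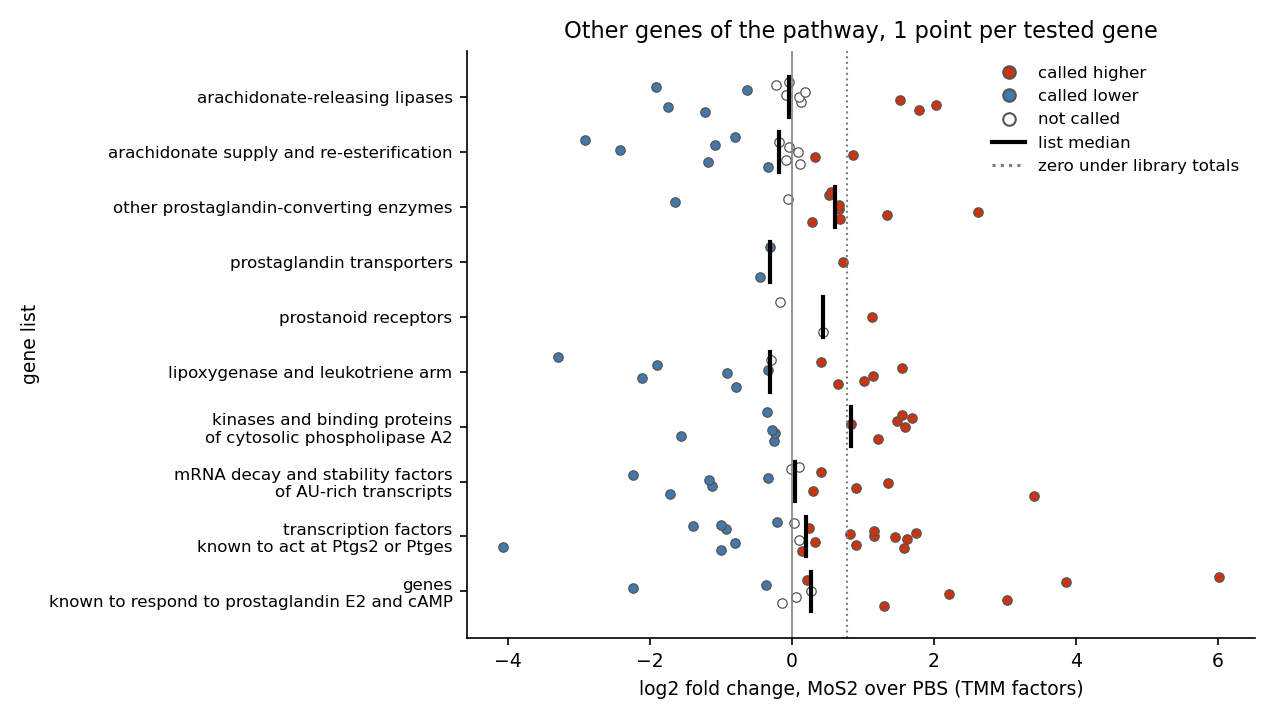
Log2 change (MoS2 over PBS, TMM factors) of each tested gene of the 10 further lists, with filled points for called genes, open points for the rest, a black bar at the list median, and a dotted line where 0 would lie under library totals. List medians run from -0.31 to 0.84, and most list members lie left of the dotted line. The point farthest right is Il6, with 1 count in the PBS libraries and 54 in the MoS2 libraries. It passed the low-count filter through the MoS2 group alone.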

How the data were processed

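The authors deposited a table of raw read counts, in whole numbers, for each gene. Tools named in the submitters' processing notes are fastp 0.20.0, the aligner HISAT2 2.1.0 and the counter featureCounts 1.6.1. The notes name GRCh38, but the 55401 identifiers are mouse, and 54349 match GENCODE M21 (GRCm38) in version and coordinates, so positions are on GRCm38. The sources used here give neither the strand nor the multi-mapping setting. Columns were matched to libraries by letter and replicate number. Exons of Ptgs1, Tbxas1 and Ptgis overlap those of opposite-strand genes, which had at most 1 count in all.

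The fit was edgeR 4.0.16 (limma 3.58.1, R 4.3.3), quasi-likelihood F test, treatment as the only term, TMM factors, default low-count filter (about 10 counts in 3 libraries), prior count 0.125 and Benjamini-Hochberg adjustment over 12972 genes, called under 0.05. SE was taken as the size of a log2 change divided by the square root of its F. The fit was tested on simulated counts in which few genes changed, up and down alike. That setting lacks the difference in TMM factors between groups seen here, so it cannot judge the scaling. TPM used the deposited exon lengths. Promoter windows come from RefSeq (GRCm38.p6), for 9 of 10 genes, and 3' UTRs from GENCODE M21 transcripts. RefSeq starts differ from GENCODE gene starts for several genes, so some windows lie inside the genes as counted. Genes, lists and tests were chosen with earlier results of these data known. Named genes are the 10, up to 4 per list with the smallest adjusted p, genes within 100 kb, and the 5 nearest to Ptgs2 and to Ptgds in profile. Others were named after their values were seen (Ptgdr2, Slco2a1, Il6, Pla2g1b, Pla2g4f, Dpep2, Ptges3). Chi-square per degree of freedom between replicate libraries was 3.16 to 13.5, so none was a duplicate. Alternatives were other scalings and filters, DESeq2 1.42.0, limma-voom, a replicate term, an adjusted p under 0.01 and leaving out each library.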

Additional observations from a re-analysis of the deposited data

How the results depend on the processing

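Scaling mattered most. With library totals alone, 2334 genes were called higher and 8786 lower, the 10 further lists had 25 higher and 68 lower, and 1 of the 10 prostaglandin genes was called higher (Ptgs2). That setting turned the log2 change of Ptges to -0.14, Ptges2 to -0.50, Pla2g4a to -0.55, Akr1b3 to -0.10, Akr1b10 to -0.11, Abcc1 to -0.042, Asb6 to -0.29 and Ciz1 to -0.34. With upper-quartile factors, and with no low-count filter, 2 of the 10 were called higher (Ptges and Ptgs2) instead of 4, and the cause was not tested. Leaving out 1 library gave 10177 to 10634 genes called (4843 to 5070 higher, 5334 to 5564 lower), 3 to 4 of the 10 higher and 3 to 4 lower, and 42 to 47 higher and 34 to 38 lower on the lists. Of the 20 ranks of TPM order, 6 changed when length was not used and 0 to 2 with 1 library left out, the 2 without MoS2 replicate 3. Replicate numbers did not pair the libraries: deviations of same-numbered libraries correlated at -0.02, -0.01 and -0.14. With the replicate block, 10203 genes were called (4848 higher, 5355 lower), 3 of the 10 higher and 4 lower, and 46 and 37 on the lists. DESeq2 called 10517 genes and limma-voom 10453. Of 91 named genes fitted, 70 were not marked reversed, weaker or stronger under any setting that gave them a value. Weaker and stronger marked a lost or gained call, which was not followed for the 10 genes. A change of direction was not marked in genes uncalled in the main fit. The 70 therefore include Ptgs1 and Ptger1, which turned to -0.23 and -0.33 with library totals, and Tbxas1, which DESeq2 did not call. Depth limits Ptgis and the MoS2 side of Hpgd, Tbxas1 and Ptgds, which rest on 7, 1, 30 and 17 counts.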

Other observations

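Neighbours within 100 kb of the 10 genes were measured too, and 35 of them passed the low-count filter. Beside Ptges2, at 7.64 kb, Lcn2, which encodes the siderophore-binding lipocalin 2, rose from 8.57 ± 1.75 to 408 ± 24.6 CPM (SD, n = 3), a log2 change of 5.57 ± 0.12 (SE, edgeR adjusted p = 1.1e-13). The mitochondrial carrier gene Slc25a25, on the other side of Ptges2 at 8.71 kb, rose from 27.2 to 109 CPM (edgeR adjusted p = 2.1e-11), and 1110008P14Rik by 2.47 ± 0.08 on the log2 scale (4.1e-12). Ptges2 itself had a log2 change of 0.27, and Naif1, in the same region, fell by 2.58 ± 0.23 (edgeR adjusted p = 1.8e-07). Near Ptgds, the fucosyltransferase gene Fut7 at 40.3 kb had 138, 130 and 126 counts in the PBS libraries and 1, 1 and 5 in the MoS2 libraries. It passed the low-count filter through the PBS group alone, so its fitted log2 change of -4.94 is given without a test, and it ran from -6.04 to -4.60 with 1 library left out. The lipid transporter gene Abca2, at 18.2 kb, had a log2 change of -1.42 ± 0.09 (edgeR adjusted p = 3.1e-09). Paxx, a DNA repair gene 5.61 kb from Ptgds, had 11.5 ± 1.93 and 11.4 ± 2.28 CPM, and was called lower with library totals alone, at a log2 change of -0.78. Edf1, at 87.8 kb, rose by 1.17 ± 0.08 (edgeR adjusted p = 7.4e-09). Smarcad1, 1.23 kb from Hpgds, fell by 0.53 ± 0.08 (edgeR adjusted p = 2.9e-05), and Parp12, 1.82 kb from Tbxas1, fell by 1.05 ± 0.08 (1.8e-08). Near Ptgds, Sapcd2, C8g, Fbxw5 and Traf2 were also called lower. Mamdc4 passed the low-count filter through the PBS group alone, so its fitted log2 change of -2.19 is given without a test. Edf1 was the only called neighbour of Ptgds that rose, while neighbours of Ptges2 changed in both directions. Over all tested genes 42.4% were called lower and 38.3% higher, and nothing is read from these directions. Of the 10 genes, 5 lie on chromosome 2.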
